A study of Mus musculus with 6 samples.

Results

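The genes for the protein subunits of the mitochondrial ribosome were examined in invariant natural killer T (iNKT) cells of the mouse spleen, which recognise lipid antigens presented by CD1d. They were chosen by name, as the protein-coding genes of the deposited table called Mrpl or Mrps followed by digits, and numbered 77 of 48709 genes. Of these, 48 carry a large-subunit name (Mrpl) and 29 a small-subunit name (Mrps). The labels describe 6 samples of natural killer T cells sorted from mouse spleen in the resting state, 3 labelled Gpx4 cKO, a conditional knockout, and 3 labelled WT, for wild type. Gpx4 encodes glutathione peroxidase 4, which reduces lipid hydroperoxides in membranes. Neither the Cre driver, strain, age and pooling of animals nor whether the samples came from separate animals is given in the sources used here. The 6 libraries in the table are numbered 18 to 23, and these names occur in none of the labels. Since 0 of the 6 libraries could be assigned a genotype, no comparison of Gpx4 cKO with WT was made, and every value is given for a library by its number.

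Mitochondria make a small set of inner-membrane proteins of the respiratory chain and ATP synthase on their own ribosomes. The ribosomal RNAs of these ribosomes are encoded in mitochondrial DNA, while all of their proteins are encoded in the nucleus, made in the cytosol and imported. The small subunit binds the messenger RNA and decodes it, and the large subunit forms the peptide bonds and holds the exit tunnel. Some of the proteins have bacterial counterparts and others are found in mitochondria only. Subunit names follow the genes, not the structure. For example, the proteins of Mrps30 and Mrps18a sit in the large subunit. The names of the other members were taken as they stand and not checked against the structure.

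The libraries held between 903524 (library 21) and 10122187 (library 19) exon reads, an 11.2-fold range of depth, and library 23 was the second shallowest with 1916746. Levels are given as CPM, exon reads scaled to 1000000 reads on library sizes corrected by TMM, so that the limit for a gene with no read was 0.282 CPM (library 19) at the deepest and 3.62 CPM (library 21) at the shallowest, for counting error only. The 9 T cell and iNKT markers summed to 4865 to 6081 CPM, with the lowest value in library 23. The 5 B cell markers summed to 239 (library 19) to 843 CPM (library 20), and the 5 erythroid markers to 3.61 (library 18) to 230 CPM (library 23). The 4 myeloid markers in the table summed to 2.35 to 4.46 CPM, and 1 of them had 0 reads in every library. The part of these other cells in the values below was not tested, and in sorted bulk RNA fewer cells of a type and less RNA per cell cannot be told apart.

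Promoter sequences are shown first for members that stand for the kinds of start region seen among them, chosen after values were known: the facing pair Mrps11 and Mrpl46, the evenly expressed Mrpl9 and Mrpl39, and Mrps12 and Mrps18a, which carry a pair of motifs each. RefSeq promoters (build GRCm38.p6, 300 bases each, mostly before the start annotated in RefSeq) were found for 68 of the 77 members, 74 promoters in all. The deposited gene bounds, used for starts and overlaps below, can differ from RefSeq. On those bounds the minus-strand genes Mrpl46 and Mrpl39 start at 78783531 and 84735742, so their windows lie inside the gene. Strings known from binding sites of 3 activators of nuclear genes for mitochondrial proteins were searched on both strands. These were GCGCAT followed directly by GCGC for NRF1, which reads the same on both strands, CCGGAAG for ETS-family factors such as GABPA, and AAGATGGC for YY1, and the last pair can share the letters AAG. Matches are in capitals, in the order 5′ to 3′ on the gene's own strand. Mrps11 (small subunit, chr7:78782881-78783180, plus strand) and Mrpl46 (large subunit, chr7:78783040-78783339, minus strand) lie head to head, and their windows share 141 bases.
Mrps11: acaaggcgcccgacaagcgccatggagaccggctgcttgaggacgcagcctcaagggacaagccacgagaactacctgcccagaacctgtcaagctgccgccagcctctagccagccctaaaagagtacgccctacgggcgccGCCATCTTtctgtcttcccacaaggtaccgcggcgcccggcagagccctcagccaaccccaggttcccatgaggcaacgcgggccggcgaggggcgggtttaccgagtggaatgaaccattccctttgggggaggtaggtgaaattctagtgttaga
Mrpl46: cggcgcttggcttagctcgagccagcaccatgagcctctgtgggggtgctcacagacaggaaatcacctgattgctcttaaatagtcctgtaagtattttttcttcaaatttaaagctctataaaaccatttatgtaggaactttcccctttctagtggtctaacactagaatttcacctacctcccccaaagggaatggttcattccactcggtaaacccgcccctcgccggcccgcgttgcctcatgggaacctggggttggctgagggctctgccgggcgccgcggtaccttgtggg
Mrps11 carried the YY1 string, as its reverse complement, and Mrpl46 carried none of the 3 strings in its window. Mrpl9 (chr3:94443086-94443385, plus strand) and Mrpl39 (chr16:84735195-84735494, minus strand), large-subunit genes among the 4 members with the narrowest range over libraries, each carried the NRF1 string. The other 2 of those 4, Mrpl10 and Mrpl24, did not, and the third carrier, Mrpl32, had a 2.84-fold range.
Mrpl9: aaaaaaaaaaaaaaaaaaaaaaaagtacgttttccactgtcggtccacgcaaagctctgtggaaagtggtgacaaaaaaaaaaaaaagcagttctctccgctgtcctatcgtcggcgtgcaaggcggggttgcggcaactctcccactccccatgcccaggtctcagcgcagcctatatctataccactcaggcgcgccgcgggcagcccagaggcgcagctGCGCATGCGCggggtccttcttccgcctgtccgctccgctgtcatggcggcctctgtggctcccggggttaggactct
Mrpl39: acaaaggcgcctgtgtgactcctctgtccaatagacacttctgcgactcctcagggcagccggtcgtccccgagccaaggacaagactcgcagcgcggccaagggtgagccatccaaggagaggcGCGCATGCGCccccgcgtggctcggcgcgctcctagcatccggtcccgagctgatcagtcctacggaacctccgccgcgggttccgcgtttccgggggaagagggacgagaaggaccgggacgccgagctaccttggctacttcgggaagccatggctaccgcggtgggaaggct
Mrps12 (chr7:28741772-28742071, minus strand), whose protein lies at the decoding centre, and Mrps18a (chr17:46110754-46111053, plus strand) each carried the ETS and the YY1 string.
Mrps12: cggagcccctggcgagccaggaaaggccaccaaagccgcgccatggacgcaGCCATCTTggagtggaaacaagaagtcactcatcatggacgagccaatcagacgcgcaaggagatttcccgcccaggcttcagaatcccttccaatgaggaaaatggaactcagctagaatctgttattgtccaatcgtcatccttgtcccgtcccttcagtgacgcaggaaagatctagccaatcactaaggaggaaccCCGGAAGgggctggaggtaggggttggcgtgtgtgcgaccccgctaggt
Mrps18a: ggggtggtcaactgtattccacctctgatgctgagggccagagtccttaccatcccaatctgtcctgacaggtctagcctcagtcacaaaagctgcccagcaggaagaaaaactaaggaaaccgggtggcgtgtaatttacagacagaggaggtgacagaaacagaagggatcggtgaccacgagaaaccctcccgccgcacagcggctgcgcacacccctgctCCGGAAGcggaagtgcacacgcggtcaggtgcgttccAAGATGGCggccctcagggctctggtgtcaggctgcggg
Members with 2 of the 3 strings were Mrpl32, Mrps12, Mrps18a and Mrps27.

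The ETS string occurred in 25 of the 68 members with a promoter (36.8%), against 24.3% of 6849 tested protein-coding genes and 9.93% of all 27025 genes with a promoter. The YY1 string occurred in 12 of the 68 members (17.6%), against 6.51% of tested protein-coding genes and 3.19% of all genes. The NRF1 string occurred in 3 members, Mrpl9, Mrpl32 and Mrpl39 (4.41%), against 2.82% of tested protein-coding genes and 1.07% of all genes. Large- and small-subunit genes held the ETS string in 33.3% and 42.3% of cases and the YY1 string in 14.3% and 23.1%. The Sp1 string GGGCGG was present in 50% of members against 70.9% of tested protein-coding genes. CCAAT (39.7% of members and 42.8% of tested protein-coding genes) and TATAAA (7.35% and 7.34%) were about as frequent in members as in tested genes, and CACGTG was found in 7.35% of members and 12.4% of tested genes. The median GC content was 58.5% in member promoters and 52.7% in all promoters. A match is a description of the letters in these windows, and no binding was measured.

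Many members shared their start region with a neighbour. A protein-coding gene starting on the opposite strand within 1000 bases of the member's own start was found for 33 of 77 members (42.9%), against 18.3% of 8754 tested protein-coding genes and 10.9% of all protein-coding genes. The share was 50% for large-subunit and 31.0% for small-subunit genes. The partners included other genes of mitochondria and translation. Mrps12 started 172 bases from Sars2, which encodes the mitochondrial seryl-tRNA synthetase, and Mrpl49 started 59 bases from Fau, which encodes a cytosolic ribosomal protein. Mrpl36 was paired with Ndufs6, a subunit gene of complex I, and Mrpl43 with Twnk, the helicase of mitochondrial DNA replication. The members were spread over 17 chromosomes, with at most 10 on any one.

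Levels between genes were compared per exon length, as the deposited RPKM. These were scaled to 2.04 to 2.45 times the exon reads of each library, so they give the order of genes and not a share of exon reads. Every member had at least 1 exon read in every library. The median RPKM over libraries ran from 0.934 to 46.6 among the 77 members, a 49.9-fold spread, with a median of 4.65. Large-subunit genes had a median of 5.40 RPKM and covered this whole spread, and small-subunit genes had a median of 3.86 RPKM and ran from 1.51 to 15.9 RPKM, a 10.6-fold spread.

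**Figure D1:**
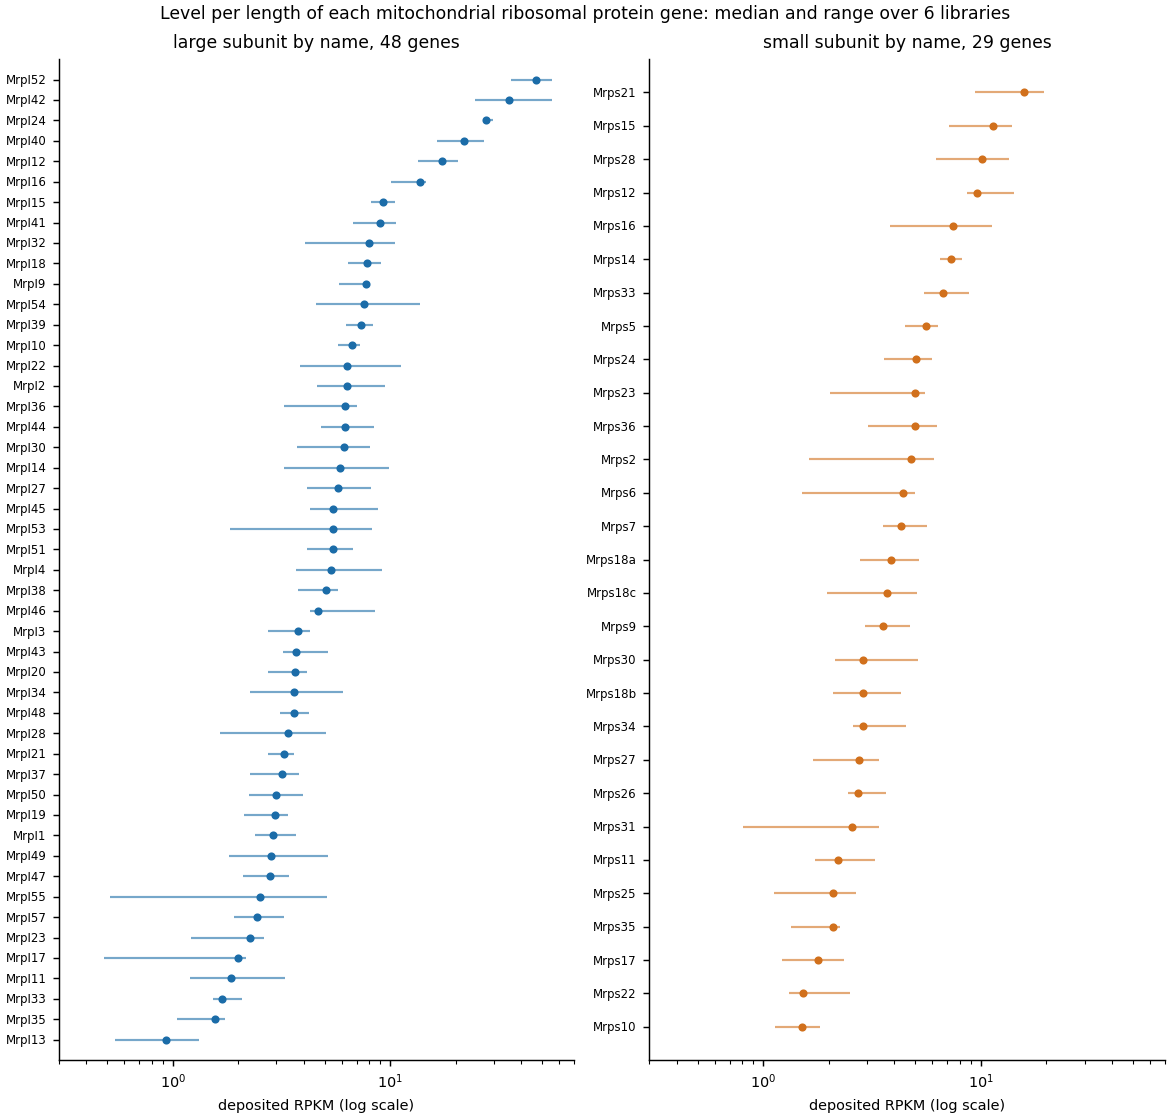
Deposited RPKM of each gene (x axis, log scale) for 48 large-subunit genes on the left and 29 small-subunit genes on the right. Points are medians and lines run over the 6 libraries from lowest to highest. Mrpl52 (46.6) and Mrpl13 (0.934) bound the large subunit, and Mrps21 (15.9) and Mrps10 (1.51) bound the small subunit.

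The highest levels in the large subunit were those of Mrpl52 and Mrpl42, which encode proteins found in mitochondrial ribosomes without a bacterial counterpart. Mrpl52 (ENSMUSG00000010406, chr14:54426909-54429756, plus strand, GRCm38, 758 exon bases) had 35.7 to 55.6 RPKM with a median of 46.6. Mrpl42 (ENSMUSG00000062981, chr10:95480806-95501927, minus strand, 666 exon bases) had 24.5 to 55.2 RPKM with a median of 35.1. Mrpl52 was above Mrpl42 in libraries 18 to 22, and Mrpl42 was above Mrpl52 in library 23 (55.2 against 44.4 RPKM). Mrpl24, which has a bacterial counterpart, followed with 26.7 to 29.6 RPKM and a median of 27.6, and its range lay inside that of Mrpl42. Mrpl40, specific to mitochondria, had 16.5 to 27.1 RPKM with a median of 21.7. Mrpl12, the protein of the stalk that recruits translation factors and is also known to bind mitochondrial RNA polymerase, had 13.4 to 20.5 RPKM with a median of 17.3. The ranges of neighbours in this order overlapped in every case, but within each library Mrpl24 was above Mrpl40.

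The lowest large-subunit genes were Mrpl13, Mrpl35 and Mrpl33, all with bacterial counterparts. Mrpl13 had 0.545 to 1.33 RPKM with a median of 0.934, Mrpl35 had 1.05 to 1.74 with a median of 1.57, and Mrpl33 had 1.54 to 2.08 with a median of 1.69. Mrpl13 and Mrpl33 have exon lengths of 7936 and 7326 bases in the table, near the top of the members' range of 566 to 8631 bases. RPKM divides by that length, whichever isoforms the cells made, and 95.1% of Mrpl33 reads were unique. Their reads summed over libraries were 597 for Mrpl13 and 861 for Mrpl33, against a median of 601 for all members.

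In the small subunit Mrps21 had 9.43 to 19.6 RPKM with a median of 15.9. Mrps15 had 7.11 to 13.9 RPKM with a median of 11.4, and Mrps28 had 6.25 to 13.4 with a median of 10.2. Mrps12 had 8.68 to 14.2 RPKM with a median of 9.63, and Mrps16 had 3.82 to 11.2 with a median of 7.42. The proteins of Mrps21, Mrps15, Mrps12 and Mrps16 have bacterial counterparts. The ranges of all 5 genes overlapped, but within each library Mrps21 was above Mrps28, Mrps12 and Mrps16. The lowest small-subunit genes were Mrps10 (1.13 to 1.82 RPKM, median 1.51), Mrps22 (1.32 to 2.51, median 1.53) and Mrps17 (1.23 to 2.36, median 1.78), whose ranges also overlapped. Mrps22 is specific to mitochondria, and Mrps10 and Mrps17 have bacterial counterparts. The exon lengths of Mrps10 and Mrps17 were 8079 and 6011 bases. Their reads over the libraries, 824 and 760, lay above the median of 601 for all members, so their low RPKM went with long exons.

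The summed level of the 77 members was nearly level over the libraries. From library 18 to library 23 it was 2173, 1977, 1997, 2141, 2037 and 2120 CPM. The highest sum was 1.10 times the lowest (95% interval 1.08 to 1.12), and the members took 0.196% to 0.225% of exon reads. That interval is a normal approximation on the log ratio and makes no allowance for picking the highest and lowest libraries. Large-subunit genes summed to 1304 to 1444 CPM (1.11-fold) and small-subunit genes to 654 to 734 CPM (1.12-fold). The 100 cytosolic ribosomal protein genes spanned 54260 (library 19) to 75325 CPM (library 18), a 1.39-fold range. The 13 mitochondrially encoded protein genes, the messages that these ribosomes translate, spanned 32011 (library 19) to 54378 CPM (library 21), a 1.7-fold range.

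Gene by gene, the median log2 deviation of the 75 tested members from each gene's own median was 0.06 in library 18, where 51 of 75 lay above, and -0.05 in library 19, where 51 of 75 lay below. In the other libraries it stayed between -0.02 and 0.02, and for all tested genes it lay within 0.01 of 0 in every library. The cytosolic ribosomal protein genes had a median deviation of 0.12 in library 18, where 77 of 85 lay above, and of -0.41 in library 19, where 83 of 85 lay below. These ends hold for the TMM scale. As a share of exon reads the members were again highest in library 18 (0.225%) but lowest in library 21 (0.196%, against 0.207% in library 19). By subunit, on the TMM scale, the large sum was highest in library 21 and the small sum lowest in library 20. As a share of exon reads both subunits were highest in library 18 and lowest in library 21.

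Large-subunit genes held about 66% to 68% of member exon reads in every library. The ratio of large- to small-subunit reads, from library 18 to library 23, was 1.96, 1.94, 2.05, 2.07, 2.0 and 2.11. The large share was 67.9% (exact binomial 95% interval 66.4% to 69.3%, 2730 large and 1292 small reads) in library 23 and 66.0% (65.3% to 66.6%, 13849 large and 7150 small reads) in library 19. The highest ratio was 1.09 times the lowest (95% interval by a normal approximation on the log ratio, 1.02 to 1.17). Library 21, with 1197 large and 577 small reads, had an interval of 65.2% to 69.7%, which held the share of each of the other libraries. With Mrps30 and Mrps18a counted in the large subunit, where their proteins sit, the ratio was 2.10 to 2.37, again lowest in library 19 and highest in library 23. Per exon length the median level of large-subunit genes was 9.59 to 11.3 CPM per kilobase and that of small-subunit genes 7.10 to 9.57, and the large median was the higher one in each library.

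**Figure D2:**
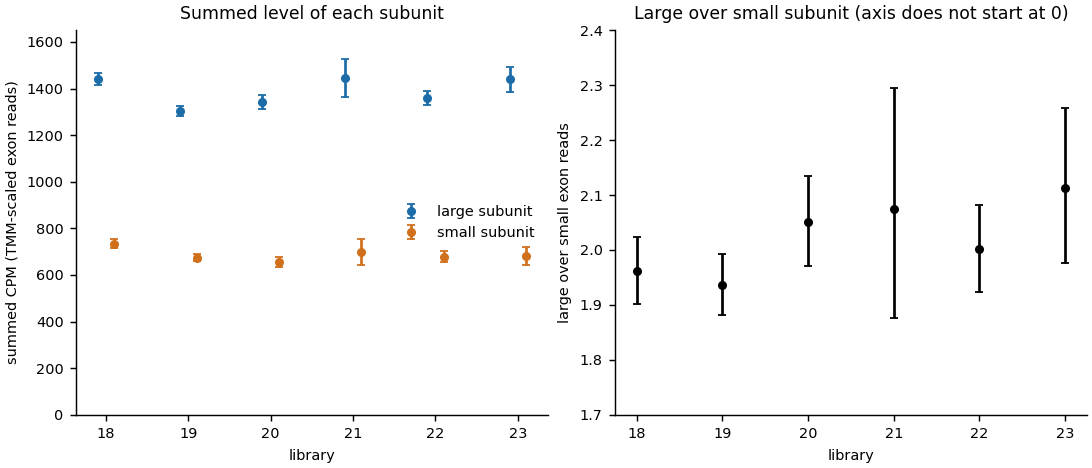
Left, summed CPM of the large-subunit (blue) and small-subunit (orange) genes in each library with exact Poisson 95% intervals. Right, ratio of large- to small-subunit exon reads with exact binomial 95% intervals, on an axis that does not start at 0. The sums lie at 1304 to 1444 and 654 to 734 CPM, and the ratio runs from 1.94 to 2.11.

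Single members varied more than their sum. A gene was tested where it had at least 200 exon reads over the libraries, by a chi-square test that set its counts against effective library sizes, with Benjamini-Hochberg adjustment over all 9042 tested genes, and 75 of the 77 members were tested. Mrpl34 (133 reads) and Mrpl55 (187 reads) were not. Of the 75, 51 (68%) varied over the libraries beyond counting error at an adjusted p of 0.05, against 71.6% of all tested genes, so the members' share was near the background. The count was 28 of 46 large-subunit genes (60.9%) and 23 of 29 small-subunit genes (79.3%), and the difference between subunits was not tested. The highest CPM was at most 2 times the lowest for 48 of 75 members (64%), 30 of 46 large (65.2%) and 18 of 29 small (62.1%), against 72.9% of all tested genes. The median of highest over lowest CPM was 1.76 for members (1.57 large, 1.88 small) and 1.58 for all tested genes. The members had fewer reads, a median of 694 against 1290.5 for all tested genes. These tests ask whether libraries differ and carry no information on genotype.

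Within bands of read number the members' shares lay on both sides of those of all tested genes. With at least 200 but under 500 reads, 19 of 30 members (63.3%) differed against 61.4% of all tested genes in the band, and 12 (40%) stayed within 2-fold against 33.8%. With at least 500 but under 1000 reads, 14 of 23 members (60.9%) differed against 62.3%, and 18 (78.3%) stayed within 2-fold against 65.5%. With at least 1000 but under 2000 reads, 14 of 18 members (77.8%) differed against 68.6%, and 14 stayed within 2-fold (77.8%) against 85%. All 4 members with 2000 reads or over differed and stayed within 2-fold, against 84.5% and 93.2% of genes in that band. The 85 tested cytosolic ribosomal protein genes, with a median of 21378 reads, all differed and 77 of them stayed within 2-fold.

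**Figure D3:**
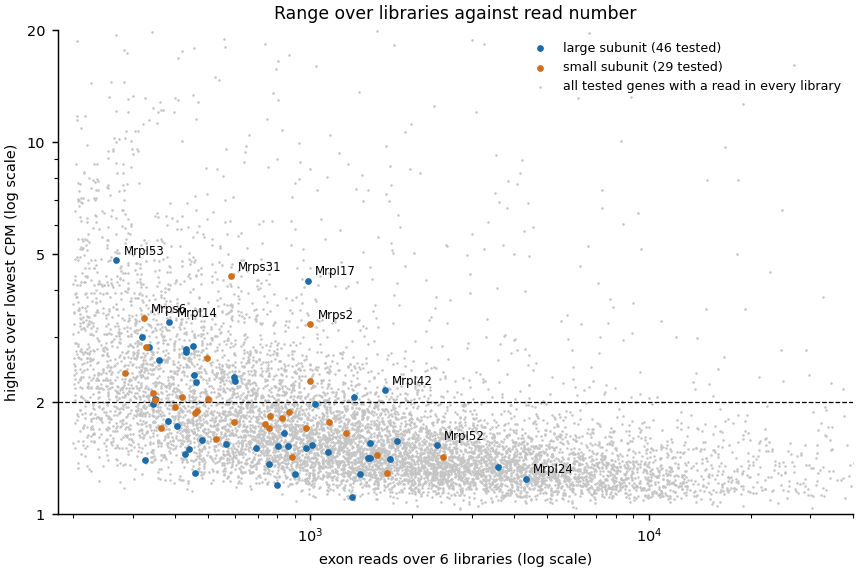
Highest over lowest CPM over the 6 libraries (y axis, log scale) against exon reads summed over libraries (x axis, log scale) for 46 large-subunit genes (blue), 29 small-subunit genes (orange) and all tested genes with a read in every library (grey, cropped at the axis limits). The dashed line marks a 2-fold range, and members lie from 1.11 (Mrpl39) to 4.82 (Mrpl53).

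The shallowest libraries held most of the extremes. Among the 75 tested members the highest CPM was in library 21 for 24 and in library 23 for 21, and the lowest was in library 23 for 21 and in library 21 for 18. Library 18 was the lowest for 1 member. The same counts were not made over all tested genes. The quartiles of their log2 deviations were likewise widest apart in library 21 (-0.240 to 0.198) and library 23 (-0.177 to 0.179). Beside its depth, library 21 had the highest sum of mitochondrially encoded messages, and library 23 had the highest erythroid and the lowest T cell and iNKT marker sums, and the part of these in the extremes was not tested. Without library 21, 64 of 75 members (85.3%) stayed within 2-fold, against 84.5% of all tested genes. Without libraries 21 and 23, a setting chosen after seeing the data, 72 of 75 members (96%) did, against 93.1% of all tested genes. In that setting 44 members (58.7%) differed by more than counting error against 61.2% of all tested genes, and 42 of the 44 were among the 51.

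**Figure D4:**
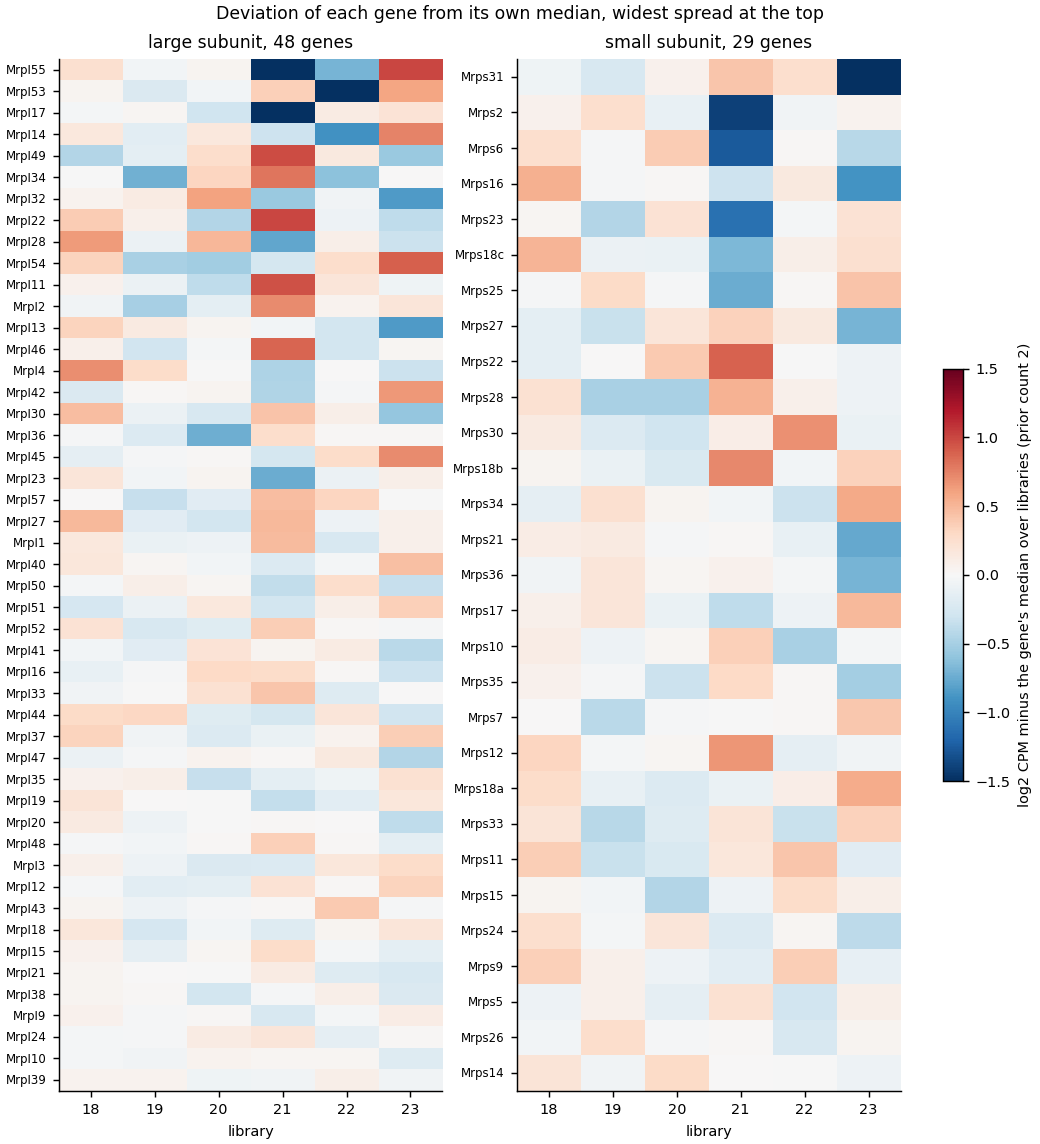
Log2 CPM (prior count 2) of each gene minus its own median over the 6 libraries, as colour from blue (lower) to red (higher), for 48 large-subunit genes on the left and 29 small-subunit genes on the right. Rows run from the widest spread at the top to the narrowest at the bottom, and values past the ends of the colour scale take its end colours. The strongest colours sit in the columns of libraries 21 and 23, as in Mrpl17 and Mrps2 (library 21) and Mrps31 (library 23).

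The 4 tested members with the narrowest range were large-subunit genes. Mrpl39, specific to mitochondria, had 41.6, 41.7, 38.2, 38.6, 42.5 and 38.5 CPM in libraries 18 to 23, a 1.11-fold range (adjusted p = 0.865, chi-square test). Mrpl10, which anchors the stalk, had 24.5, 23.9, 25.8, 25.3, 25.3 and 21.6 CPM, a 1.19-fold range (adjusted p = 0.933). Mrpl9, which has a bacterial counterpart, had 44.7, 42.1, 43.5, 36.2, 41.9 and 46.4 CPM, a 1.28-fold range (adjusted p = 0.812). No difference between libraries was detected for these 3 genes at this depth. Mrpl24 had 132, 132, 146, 152, 122 and 136 CPM, a 1.24-fold range that passed the test at 4347 reads (adjusted p = 0.0245). That call was lost without library 20 (adjusted p = 0.200) or library 22 (0.140), and with TMM factors from unfiltered genes (0.0840).

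The widest range among the tested members belonged to Mrpl53, a large-subunit gene specific to mitochondria (ENSMUSG00000030037, chr6:83109040-83109939, plus strand). It had 9.64, 8.0, 9.09, 12.1, 2.95 and 14.2 CPM, a 4.82-fold range with its lowest value in library 22 (adjusted p = 3.31e-05). Only 10.1% of its reads were unique, and Gm42688, annotated on the same strand, overlaps it over 900 bases. Reads of the pair added together gave 14.8, 14.4, 14.4, 14.5, 13.1 and 21.6 CPM, a 1.65-fold range, so the low value in library 22 was met by a high value of Gm42688 there (10.2 CPM, against 2.41 to 7.38 CPM in the others). Counts of Mrpl53 are uncertain for this reason, and without library 22 its range was 1.78-fold (adjusted p = 0.136).

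Mrps31, Mrpl17 and Mrps2, 3 of the other wide members, had their lowest value in a shallow library, 21 or 23, as did Mrps6, described below. Mrps31, a small-subunit gene specific to mitochondria (ENSMUSG00000031533, chr8:22411361-22429665, plus strand), had 18.2, 16.0, 19.8, 25.3, 22.7 and 5.80 CPM, a 4.37-fold range (adjusted p = 9.18e-05). Without library 23, where it was lowest, the range was 1.58-fold (adjusted p = 0.0401). Mrpl17, a large-subunit gene with a bacterial counterpart (ENSMUSG00000030879, chr7:105803206-105811099, minus strand), had 30.5, 31.6, 25.1, 8.45, 33.8 and 35.8 CPM, a 4.24-fold range (adjusted p = 0.000854). Its low value in library 21 rested on 7 reads, and without that library the range was 1.42-fold (adjusted p = 0.0823). Mrps2, whose protein has a bacterial counterpart (ENSMUSG00000035772, chr2:28468066-28471178, plus strand), had 31.0, 35.2, 27.3, 10.9, 28.4 and 30.6 CPM, a 3.24-fold range (adjusted p = 0.00195). Its value in library 21 rested on 9 reads, and without it the range was 1.29-fold (adjusted p = 0.0731).

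Mrpl14 differed whichever library was left out, and Mrps6 did not pass the test. Mrpl14, at the face of the large subunit that meets the small one, had 13.6, 10.8, 13.6, 9.65, 6.28 and 20.6 CPM, a 3.28-fold range with its extremes in libraries 22 and 23 (adjusted p = 2.43e-05). It still differed without library 22 (2.13-fold, adjusted p = 0.0169) and without library 23 (2.17-fold, adjusted p = 0.00173). The gene overlaps Tmem63b on the opposite strand over 584 bases, and whether counting used the strand is not stated in the labels or headers. Mrps6, with a bacterial counterpart, had 11.1, 9.13, 12.2, 3.62, 9.41 and 6.85 CPM, a 3.36-fold range that did not pass the test (adjusted p = 0.101). It had 3 reads in library 21, without which its range was 1.79-fold (adjusted p = 0.198).

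The 4 members with the smallest p-values were large-subunit genes, some of them named here after their values were seen. Mrpl30 had 54.6, 37.1, 33.5, 53.1, 42.1 and 26.4 CPM in libraries 18 to 23 (2.07-fold, adjusted p = 4.94e-11). Mrpl54 had 16.7, 9.32, 9.09, 10.9, 15.9 and 24.8 CPM (2.73-fold, adjusted p = 8.49e-09). Mrpl52 had 86.4, 63.0, 65.5, 96.5, 75.1 and 73.8 CPM (1.53-fold, adjusted p = 4.36e-08). These 3 genes shared a high value in library 18 relative to library 19, but Mrpl30 was lowest and Mrpl54 highest in library 23. Mrpl42 had 43.9, 51.8, 52.7, 37.4, 50.6 and 80.7 CPM (2.16-fold, adjusted p = 8.46e-08), and without library 23 its range was 1.41-fold (adjusted p = 0.0578).

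The facing genes Mrpl46 and Mrps11, shown above by their promoters, can be set side by side. Mrpl46, specific to mitochondria, had 15.9, 12.2, 14.7, 27.8, 12.4 and 15.3 CPM in libraries 18 to 23 (2.27-fold, adjusted p = 0.00840). Without library 21, where it was highest from 23 reads, its range was 1.3-fold and did not pass (adjusted p = 0.231). Mrps11, with a bacterial counterpart, had 14, 8.47, 9.09, 12.1, 14.4 and 9.49 CPM (1.7-fold, adjusted p = 0.00202, and 0.0678 without library 19 at 1.59-fold). Mrps11 was highest in library 22, and the genes overlap over 413 bases on opposite strands.

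Among the remaining members of highest RPKM, several calls were lost when 1 library was left out. High RPKM did not always mean many reads, since Mrps16, with 566 exon bases, had 328 reads against a median of 601 for all members. Mrpl40 had 45.9 to 72.2 CPM (1.58-fold, adjusted p = 0.00846) and Mrpl12 had 49.0 to 69.1 CPM (1.41-fold, adjusted p = 0.00929), both highest in library 23. Without library 23 neither passed (adjusted p = 0.183 for Mrpl40 and 0.175 for Mrpl12), and Mrpl12 did not pass with total exon reads (0.0600). Mrps21 had 28.4, 28.7, 25.8, 26.5, 24.2 and 15.3 CPM, with library 23 below the rest (1.88-fold, adjusted p = 0.0309), and a 1.19-fold range without it (adjusted p = 0.496). Library 23 was thus high for Mrpl42, Mrpl40 and Mrpl12 and low for Mrps21. Mrps15 had 29.1 to 48.0 CPM (1.65-fold, adjusted p = 0.000206), and its call was lost without library 20, where it was lowest (adjusted p = 0.103). Mrps28 had 11.8 to 24.1 CPM (2.04-fold, adjusted p = 6.76e-05) and kept its call without any 1 library. Mrps12 had 19.4 to 33.8 CPM (1.74-fold, adjusted p = 0.0164) and lost its call without library 18 (0.163) at an unchanged fold, since its extremes were in libraries 21 and 22. Mrps16 had 4.74 to 13.4 CPM (2.82-fold, adjusted p = 0.00971) and lost its call without library 18 (2.15-fold, 0.332) or library 23 (1.85-fold, 0.0504).

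At the low end of the RPKM order, Mrpl13 had 22.2, 19.2, 18, 16.9, 14.4 and 9.49 CPM (2.34-fold, adjusted p = 0.00263), and its range without library 23 was 1.54-fold (adjusted p = 0.0408). Mrpl35 (10.5 to 15.8 CPM, adjusted p = 0.394) and Mrpl33 (22.9 to 35.0 CPM, adjusted p = 0.116) did not pass the test. Mrps10 had 18.6 to 33.8 CPM (adjusted p = 0.0146, and 0.477 without library 22). Mrps22 had 11.1 to 22.9 CPM (adjusted p = 0.0246), highest in library 21, and its call was lost without library 18, 20 or 21 (adjusted p = 0.0534, 0.0938 and 0.146) or with total exon reads (0.0651). Mrps17 had 16.9 to 31.1 CPM and did not pass (adjusted p = 0.0711), although it passed without library 18 (0.0408) and with total exon reads as library sizes (1.99-fold, 0.0329). Of these 6 genes, only Mrpl13 passed the test whichever library was left out.

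The 3 paralogues of bacterial S18 were each highest in another library. Mrps18a, whose protein sits in the large subunit, had 34.7, 26.5, 24.7, 26.5, 30.8 and 42.2 CPM in libraries 18 to 23 (1.71-fold, adjusted p = 0.000279). Mrps18b, in the small subunit, had 12.8, 11.6, 10.5, 20.5, 12 and 15.8 CPM (1.95-fold) and did not pass the test (adjusted p = 0.159). Mrps18c, the form in the position of the bacterial protein, had 11.6, 7.53, 7.45, 4.83, 8.49 and 9.49 CPM (2.4-fold) with an adjusted p of 0.0489. Without library 21, where it had 4 reads, its range was 1.55-fold (adjusted p = 0.0484). The call was lost at the same fold without library 19 (0.0926), without library 20 (0.0510) and with a minimum of 50 reads per tested gene (0.0503). Library 21 was thus the highest for Mrps18b and the lowest for Mrps18c, from 17 and 4 reads. Per exon length their medians were 3.86 RPKM for Mrps18a, 2.87 for Mrps18b and 3.71 for Mrps18c, with overlapping ranges. Mrps30, also a large-subunit protein, had 11.2, 8.76, 8.18, 10.9, 16.6 and 9.49 CPM (2.03-fold, adjusted p = 0.000321), and its call was lost without library 22 (1.37-fold, adjusted p = 0.404).

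The intron share, the part of a gene's exon and intron reads that fell on introns, was lower in members than in other protein-coding genes. Summed over genes, it was 28.2% to 33.9% in members over the 6 libraries, against 44.5% to 49.7% in other protein-coding genes and 1.75% to 2.33% in cytosolic ribosomal protein genes. The members lay between these groups in every library. Large-subunit genes had 23.6%, 26.3%, 22.9%, 33.0%, 21.4% and 21.2% in libraries 18 to 23, against 42.0%, 42.0%, 43.2%, 35.7%, 38.9% and 40.9% in small-subunit genes. The exact binomial 95% intervals of the subunits did not overlap in any library but 21, where they were 30.8% to 35.2% for large and 32.5% to 38.9% for small. Without Mrpl24, a gene singled out after its value was seen, the large share in library 21 was 24.7% (22.5% to 27.1%). These intervals treat reads as separate draws and do not measure the spread between genes. The median share over single genes was 13.2% to 18.6% for large-subunit and 15.4% to 27.1% for small-subunit genes.

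A few long genes held more than 1 in 2 of the small-subunit intron reads. Mrps28 (120990 intron bases), Mrps9 (48688) and Mrps6 (52905) held 20.7%, 19.0% and 17.2% of the small-subunit intron reads. Without these 3 genes, a set chosen after their values were seen, the small-subunit share was 21.7% to 28.3%. In the large subunit, Mrpl1, of the stalk at the tRNA exit, and Mrpl3, near the peptidyl transferase centre, held 16.0% and 12% of intron reads. Without these and Mrpl33, the 3 large-subunit genes with the most intron reads, the large-subunit share was 14.8% to 20% in the libraries other than 21 and 29.4% in library 21. With both sets left out, the large share was below the small one in each library but 21, where the small share was 23.1%. Pooled over libraries, 15 large-subunit and 6 small-subunit genes had under 10% intron reads, 13 and 6 had 10% to 20%, 16 and 11 had 20% to 50%, and 4 and 6 had over 50%.

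The highest pooled intron share was that of Mrps6 (89.4%, with 82.4% to 93.0% over libraries). Slc5a3, with 1586 exon reads, lies inside Mrps6 on the same strand, so intron reads of Mrps6 may include reads of its neighbour, and the part of this was not tested. Mrps28 had 86.8%, 87.6%, 89.9%, 80.0%, 82.8% and 86.5% in libraries 18 to 23, and Mrps27, a pentatricopeptide repeat protein of the small subunit, had a pooled share of 81.7%. Per kilobase these genes had more exon than intron reads, with 639 exon and 27.1 intron reads per kilobase for Mrps28 and 186 and 22.2 for Mrps27. Mrps9 had 58.8% in library 22 and 66.6% to 68.8% in the others. At the other end Mrps2 had 0.0997% (1 intron read against 1002 exon reads, over 194 intron bases), Mrps12 had 1.34% and Mrpl51, specific to mitochondria, 2.09%.

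Mrpl24 stood apart in 1 library. Its intron share was 65.3% in library 21 (exact binomial 95% interval 60.1% to 70.2%, 237 intron and 126 exon reads), against 9.44%, 13.4%, 11.0%, 14.7% and 10.7% in libraries 18, 19, 20, 22 and 23. Its exon level in library 21, 152 CPM, lay close to the 122 to 146 CPM of the others. The gene (ENSMUSG00000019710, chr3:87919506-87923672, plus strand) has 1912 intron bases and overlaps Rrnad1 on the opposite strand over 1072 bases. Rrnad1 had 12.1 CPM in library 21, from 10 exon reads, and 13.8 to 21.6 CPM in the others. The part of this overlap in the intron reads of Mrpl24 was not tested. Without Mrpl24 the large-subunit share in library 21 was 24.7%, within the range of the other libraries.

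**Figure D5:**
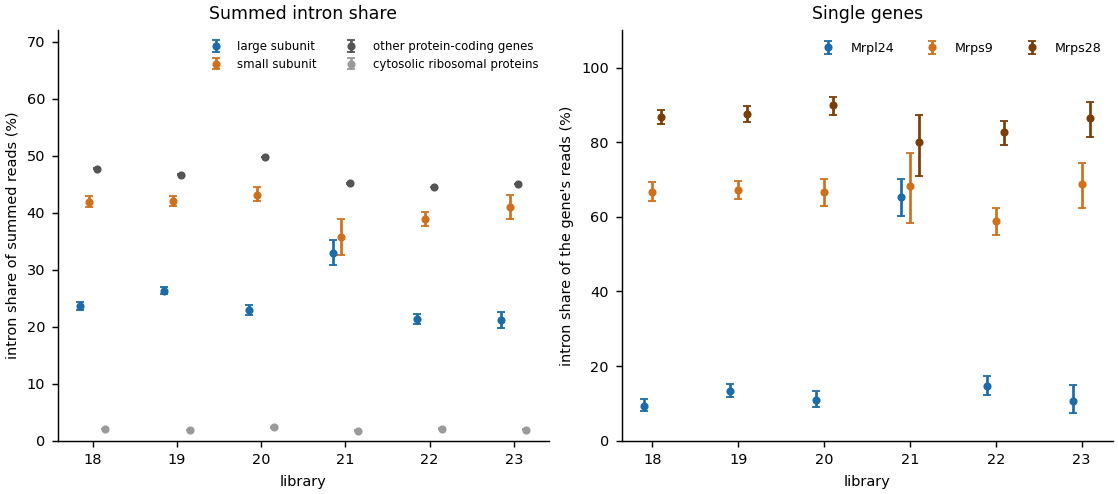
Left, intron share in percent of summed reads for large-subunit, small-subunit, other protein-coding and cytosolic ribosomal protein genes in each library, with exact binomial 95% intervals. Right, the intron share of Mrpl24, Mrps9 and Mrps28 in each library with the same intervals. Mrpl24 lies at 65.3% in library 21 and at 9.44% to 14.7% elsewhere.

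Other genes of mitochondrial translation were compared as lists chosen by function. The 6 mitoribosomal protein genes in the table with other names (Dap3, Ptcd3, Chchd1, Aurkaip1, Gadd45gip1 and Ict1) summed to 247 to 299 CPM, all 6 stayed within 2-fold and 4 differed by more than counting error, beside 72.9% and 71.6% of all tested genes for these measures, as for the lists that follow. Ptcd3, a pentatricopeptide repeat protein of the small subunit, had 66.4 to 88.6 CPM (1.33-fold, adjusted p = 0.0478), and Dap3, a GTP-binding small-subunit protein, had 24.2 to 41.6 CPM (1.72-fold, adjusted p = 0.000480). Of 14 genes for mitochondrial translation factors and related enzymes, 13 were tested, 10 differed and 10 stayed within 2-fold. Gfm1, the elongation factor G of mitochondria, had 52.3, 52.3, 59.6, 67.6, 80.1 and 75.4 CPM in libraries 18 to 23 (1.53-fold, adjusted p = 1.49e-11). Of 28 genes for assembly of the ribosome and modification of its RNA, 21 were tested, 10 differed and 16 stayed within 2-fold. Of 15 genes for mitochondrial transcription and messenger stability, 14 were tested, 6 differed and 11 stayed within 2-fold. These lists summed to 483 to 581, 493 to 549 and 599 to 649 CPM, ranges of 1.2-fold, 1.11-fold and 1.08-fold. The mitochondrial ribosomal RNAs mt-Rnr1 and mt-Rnr2 were listed at 0 in all libraries with no exon length, as were the 5 processed pseudogenes named after members, so their levels cannot be read from the table.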

How the data were processed

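RNA of sorted splenic iNKT cells was sequenced in 6 samples, and per the labels' protocols a NucleoSpin RNA XS Micro kit served for its isolation and a QIAseq UPXome kit for the libraries. The submitters' processing notes name the builds GRCm38 and mm10. Not given in the sources used here are the aligner, counter, annotation release, strand use and treatment of molecular identifiers. Per the file headers, the deposited table gave exon read counts per gene and library, not normalized by the authors. It also gave the deposited fraction of each gene's reads on introns, the deposited ratio of unique to total exon reads, and RPKM, scaled by the authors to exon length and depth. A further 10 columns of values per library were not used. The library names matched 0 labels, so no genotype comparison was made.

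Members and gene lists were chosen with earlier results of these data known. Named members were the 5 highest and 3 lowest by median RPKM in each subunit, the 6 widest and 4 narrowest by range of CPM, the 3 highest and 3 lowest by pooled intron share, the Mrps18 paralogues and Mrps30, 31 in all. Others were chosen after their values were seen. CPM used TMM factors from edgeR 4.0.16 (R 4.3.3) on 9510 genes kept by filterByExpr. Genes with at least 200 reads entered a chi-square test with 5 degrees of freedom, adjusted by Benjamini-Hochberg over 9042 genes at 0.05. It was run on simulated counts with Poisson error, which the test itself assumes. Such counts hold no PCR copies, so they cannot show its error rate in these libraries. The test detects small differences in deep libraries and allows for counting error alone. Reads copied by PCR are not independent molecules, so the true error can be larger and the test can call too many genes. Intron reads were recovered from the fraction and the exon count. Intervals for a single library are exact Poisson or binomial ones at 95%. Those for the highest over the lowest library are normal approximations on the log ratio, also at 95%. A count of 0 was taken to allow up to 3 reads. Log2 values used a prior count of 2. DESeq2 1.42.0 size factors, total reads, no filter, minimums of 50 and 500 reads and leaving out libraries were the alternatives. Gene bounds are those of the table, and 63 of 77 members have identical bounds in GENCODE M21. Of the members, 25 overlap another protein-coding gene, 22 on the opposite strand, and 4 had under 99% unique reads.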

Additional observations from a re-analysis of the deposited data

Results flagged for a closer look

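The CPM and the intron share of all 77 members, and the sums and ratios above, were examined for 1 library far from the other 5, by a gap above 0.625 of the whole range. Of 165 measures, 19 had such a library. For separate, equally precise and normally distributed values, chance gives about 1 in 20, or 8.25 of 165. The measures here differ in depth between libraries, rest in part on few reads and share reads with each other. That rate therefore does not apply to them, and no excess can be read from the count. The library was 21 in 8 measures, 22 in 4, 23 in 4 and 20 in 3.

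By level, Mrpl46 had 27.8 CPM in library 21 (others 12.2 to 15.9), Mrpl48 had 59.1 (others 41.6 to 46.7) and Mrpl11 had 21.7 from 18 reads (others 8.36 to 12.6). Also in library 21, Mrps2 had 10.9 CPM from 9 reads (others 27.3 to 35.2) and Mrpl23 had 6.03 from 5 reads (others 9.78 to 11.9). In library 22, Mrpl43 had 12.7 CPM (others 9.13 to 9.88) and Mrps30 had 16.6 (others 8.18 to 11.2). In library 23, Mrpl42 had 80.7 CPM (others 37.4 to 52.7), Mrps21 had 15.3 (others 24.2 to 28.7) and Mrps36 had 8.44 (others 13.4 to 15.8).

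By intron share, Mrpl24 had 65.3% in library 21 (others 9.44% to 14.7%), Mrpl45 had 38.2% there from 13 intron reads (others 2.91% to 13.5%), and Mrps23 had 62.5% from 10 intron reads (others 7.69% to 26.6%). Mrpl44 had 35.8% in library 23 from 19 intron reads (others 0% to 6.25%). In library 20, Mrpl54 had 28.6% (others 7.84% to 12.4%), Mrpl53 had 12.3% with most of its exon reads not unique (others 0% to 2.30%), and Mrps2 had 0.662%, which was 1 read (others 0%). In library 22, Mrps26 had 7.69% from 10 intron reads (others 0% to 2.74%) and Mrps9 had 58.8% (others 66.6% to 68.8%). Causes were not tested.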

How the results depend on the processing

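The count of 51 of 75 members that differed between libraries was 51 with DESeq2 size factors, 49 with total exon reads, 50 without a filter, 52 of 77 with a minimum of 50 reads and 32 of 45 with a minimum of 500 reads, where fewer members were tested. Leaving out each library in turn gave 39 to 47 that differed and 49 to 64 within 2-fold, against 48 with all libraries, of 73 members tested without library 18, 74 without library 19 and 75 otherwise. The part within 2-fold was then 66.2% to 85.3% of tested members, against 76.7% to 84.5% of all tested genes. The share that differed was below that of all tested genes in each of these settings, such as 52.7% against 61.2% without library 19 and 62.7% against 68.3% without library 21. The gap was small in some, such as 67.5% against 69.3% with a minimum of 50 reads. The members had fewer reads (median 694 against 1290.5), and within bands of read number their shares lay on both sides of the background. The summed CPM ratio of 1.10 was 1.15 with total exon reads and 1.13 with total exon reads without mitochondrially encoded genes and Lars2 (1.08 to 1.10 when leaving out 1 library). The ratio of large over small subunit reads between libraries, 1.09, was 1.24 as mean reads per kilobase (1.07 to 1.09 when leaving out 1 library). The ratio of intron shares, 1.2, was 1.49 as the median share over members (1.15 to 1.2 when leaving out 1 library). The cause of these shifts was not tested. Without the members of shared reads or opposite-strand overlap, a setting chosen after seeing the data, 36 of 51 differed (70.6%, against 71.6% of all tested genes). Of 35 members named for their level or range, 19 changed their call in some setting and 16 in none.

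No paired analysis was possible because the libraries could not be matched to the labels that carry replicate numbers, so neither the genotype comparison nor its fit with a replicate block was run. Library 21, with 1774 member reads, limits precision most.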
